A study of Mus musculus with 33 samples.

Results

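Expression of 10 genes of the blood vessel lining was followed in mouse mammary RNA-seq: 10 of the 24188 genes used from the organoid table, 26232 from the tumor table, and 26232 and 22854 from a pair of cell line tables. The genes are Kdr, Flt1, Flt4, Tek, Pecam1, Cdh5, Esam, Emcn, Egfl7 and Erg. They were chosen by symbol as endothelial and vascular markers, and all 10 were found in each of the 4 tables. The 33 libraries came from 3 kinds of material. Primary mammary organoids grown in matrigel carried Cdh1F/F;Trps1+/+, Cdh1+/F;Trps1F/F or Cdh1F/F;Trps1F/F alleles, and are called Trps1+/+, Cdh1+/F and double-floxed organoids below. All 12 organoid libraries were transduced with AdCre, an adenovirus that carries Cre, and harvested at day 14 or 28, with 2 libraries for each genotype and day, so that every organoid had at least 1 floxed Cdh1 allele. The 11 tumors came from 9 mice: 8 tumors of 6 WAP-cre;Cdh1F/F;Trps1F/F mice and 3 tumors of 3 WAP-cre;Cdh1F/F;Trps1+/+ mice, where WAP is a milk protein promoter that drives Cre in mammary epithelium. HC11 is an established line of mouse mammary epithelium. It received DMSO or the histone deacetylase inhibitor trichostatin A (TSA, 300 nM over 24 h; 3 libraries each), or carried the guide RNA sgTrps1 or sgScr, each represented by a single guide (2 libraries each).

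Endothelial cells line blood and lymph vessels. Vascular endothelial growth factors act through KDR, the main signalling receptor of blood vessels, FLT1, which binds VEGF tightly and also exists as a soluble decoy, and FLT4, the receptor of lymphatic vessels, while angiopoietins act through TEK. The adhesion proteins PECAM1, VE-cadherin (encoded by Cdh5) and ESAM hold the cells together, endomucin (Emcn) coats their surface, EGFL7 is secreted into the matrix around them, and the ETS transcription factor ERG maintains their identity by binding DNA at a GGAA core. Several of these genes are also used elsewhere, such as Pecam1 and Esam in platelets and Flt1 in macrophages and trophoblast. TRPS1 is a GATA-type zinc finger repressor, and Cdh1 encodes the epithelial adhesion protein E-cadherin.

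Libraries held 14833245 to 30305820 reads in organoids, 18304634 to 24192323 in tumors, 17788568 to 25586007 in the TSA table and 21346514 to 38708003 in the guide RNA table. Levels are the authors' normalized counts, scaled within each table, and differences are of mean log2(normalized count + 1). On that log2 scale Trps1 was 13.51 to 13.96 in Trps1+/+ organoids, 11.05 to 11.39 in double-floxed and 9.45 to 10.04 in Cdh1+/F organoids, and 9.90 to 12.63 against 11.46 to 12.94 in Trps1F/F and Trps1+/+ tumors. It was 13.85 to 13.91 with sgTrps1 and 13.79 to 13.89 with sgScr, so the RNA level does not check the edit. Cdh1 was 13.08 to 13.94 in organoids with 2 floxed alleles and 13.04 to 13.52 in Cdh1+/F organoids. The rows count whole genes, exons outside the deleted part included, so they do not measure deletion. Nothing in the labels says that organoid or HC11 replicates were separate cultures, so p-values there measure a spread that may be technical.

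Per kilobase of exon, Flt1 led in HC11 and Cdh5 led in tumors, and the order in organoids changed with genotype and day. HC11 cells with DMSO had 56.9 normalized counts per kilobase of Flt1 and 17.4 of Pecam1, against 0.422 of Cdh5, 0.0737 of Tek, 0.063 of Emcn and 0.0378 of Kdr. Trps1+/+ organoids at day 14 had 41.1 of Flt1, 37.3 of Erg and 36.7 of Cdh5, and at day 28 had 124 of Erg against 0.543 of Kdr. Trps1+/+ tumors had 1032 normalized counts per kilobase of Cdh5, 630 of Pecam1 and 409 of Esam, with Flt4 lowest at 57.6. Reads of Flt1 and Pecam1 were thus present in an epithelial line in which other defining endothelial genes were near 0. Of 30 further endothelial genes, 9 were at 0 in all 3 DMSO libraries (Tie1, Sox17, Cldn5, Plvap, S1pr1, Gpihbp1, Fli1, Icam2 and She), while none was at 0 in every tumor of either genotype.

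In the organoids the 10 genes did not move as one block. Flt4 was higher and Erg was much lower in double-floxed organoids than in Trps1+/+ organoids at both days, while Cdh5 and Kdr fell between day 14 and day 28 in all 3 genotypes. In double-floxed against Trps1+/+ organoids at day 14, 2 of the 10 genes rose, 3 fell and 5 were not called, at a background of 32.4% of all 15861 tested genes called, 14.5% higher and 17.9% lower (limma, adjusted p under 0.05). The groups did not overlap for 10 of the 10 genes, as for 69.9% of all genes, which is common with 2 libraries a group. At day 28, 4 rose and 3 fell, where 43.2% of all genes were called, 19.9% higher and 23.4% lower. The median difference of the 10 genes was -0.77 at day 14 and -0.29 at day 28, against -0.01 and -0.04 over all genes.

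Cdh1+/F organoids differ from Trps1+/+ organoids in both genes. At day 14, 2 of the 10 genes rose in them and none fell, with 36.3% of all genes called (18.9% higher, 17.4% lower), and at day 28, 6 rose and 2 fell, with 53.3% called (28.6% higher, 24.7% lower). The median differences were 0.65 and 0.85. Double-floxed against Cdh1+/F organoids, which differ in 1 Cdh1 allele, had 2 genes higher and 7 lower at day 14, with 40.6% of all genes called (19% higher, 21.6% lower), and 1 higher and 5 lower at day 28, with 56.7% called (27.7% higher, 29% lower). Their medians were -1.53 and -1.07. The 3 genotype comparisons of a day share libraries, and their values are set side by side below. In bulk RNA, fewer cells of a type and less RNA per cell cannot be told apart.

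**Figure D1:**
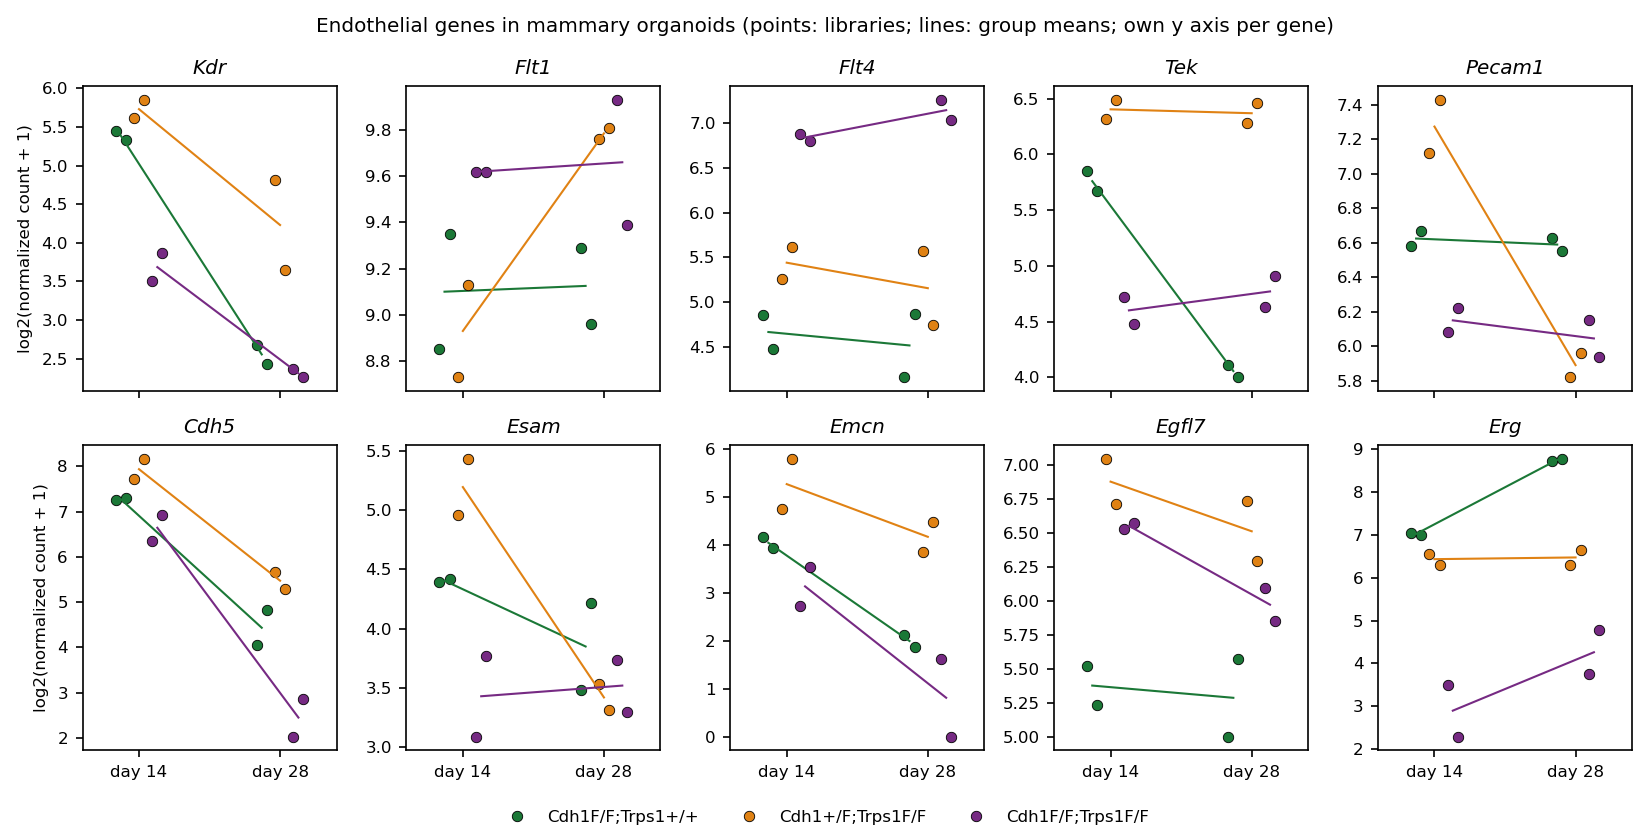
Each panel plots log2(normalized count + 1) of 1 gene in 12 organoid libraries (points) at days 14 and 28, with lines joining the means of each genotype's 2 libraries. Flt4 sits highest in the double-floxed libraries at both days, Erg sits lowest in them, and Cdh5 and Kdr descend with time in every genotype.

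**Figure D2:**
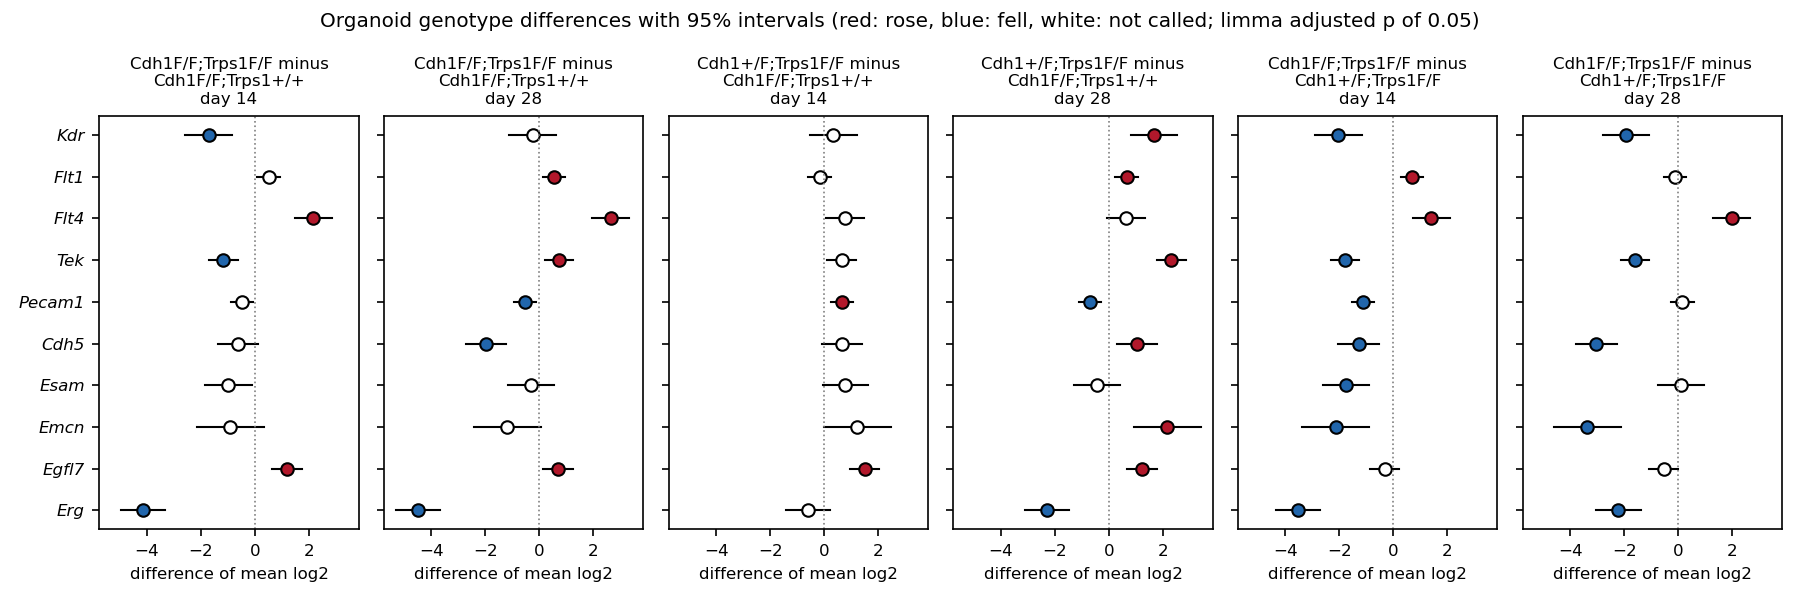
Points are differences of mean log2(normalized count + 1) for the 10 genes in 3 genotype comparisons at days 14 and 28, with 95% intervals, coloured where limma's adjusted p was under 0.05. Erg lies furthest to the left in both comparisons of double-floxed with Trps1+/+ organoids, at -4.13 and -4.49, and Flt4 lies to the right at 2.17 and 2.63.

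The promoters of 4 genes with differing organoid patterns are shown, since Kdr and Emcn moved together while Flt4 and Erg moved apart from them. RefSeq promoters (GRCm38.p6, the 250 bases before a transcript's start, read 5′ to 3′ on the gene's strand) matched 7 of the 10 genes. Capitals mark GGAA, the core bound by ETS factors such as ERG, or TTCC, the same core on the other strand. The windows are chr5:75978456-75978705 on the minus strand for Kdr, chr3:137340828-137341077 on the plus strand for Emcn, chr11:49609429-49609678 on the plus strand for Flt4, and chr16:95586594-95586843 and chr16:95459349-95459598 on the minus strand for starts 1 and 3 of Erg.
Kdr: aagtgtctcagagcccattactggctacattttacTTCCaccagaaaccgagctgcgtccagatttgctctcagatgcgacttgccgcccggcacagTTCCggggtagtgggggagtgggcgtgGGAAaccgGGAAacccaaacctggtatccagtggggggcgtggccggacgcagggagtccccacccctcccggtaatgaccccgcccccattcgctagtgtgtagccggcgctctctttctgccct
Emcn: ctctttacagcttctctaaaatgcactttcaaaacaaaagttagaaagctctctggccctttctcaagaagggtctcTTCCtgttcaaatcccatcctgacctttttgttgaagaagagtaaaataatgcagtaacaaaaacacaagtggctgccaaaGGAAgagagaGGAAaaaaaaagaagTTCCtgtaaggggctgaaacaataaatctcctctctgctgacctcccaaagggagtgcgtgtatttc
Flt4: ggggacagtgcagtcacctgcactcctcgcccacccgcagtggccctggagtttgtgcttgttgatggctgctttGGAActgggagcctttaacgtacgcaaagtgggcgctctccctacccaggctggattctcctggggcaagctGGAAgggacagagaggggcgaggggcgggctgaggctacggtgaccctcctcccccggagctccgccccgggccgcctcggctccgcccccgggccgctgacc
Erg, start 1: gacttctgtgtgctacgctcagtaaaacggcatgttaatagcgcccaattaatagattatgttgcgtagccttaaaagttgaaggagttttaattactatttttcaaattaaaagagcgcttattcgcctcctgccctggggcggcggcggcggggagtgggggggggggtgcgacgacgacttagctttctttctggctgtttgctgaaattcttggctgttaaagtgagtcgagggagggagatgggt
Erg, start 3: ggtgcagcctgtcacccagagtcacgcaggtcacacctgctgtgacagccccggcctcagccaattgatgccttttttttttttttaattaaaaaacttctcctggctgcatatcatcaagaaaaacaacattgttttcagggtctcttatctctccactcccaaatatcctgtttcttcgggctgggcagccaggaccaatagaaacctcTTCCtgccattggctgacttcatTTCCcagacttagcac
Kdr and Emcn each hold 4 matches to GGAA, Flt4 holds 2, and the 2 starts of Erg shown hold 0 and 2. Of the promoters not shown, start 2 of Erg holds 4, as many as Kdr and Emcn, Flt1 holds 4, Tek 2, and starts 1 to 3 of Egfl7 hold 5, 3 and 1. The core occurs in 93.4% of 27025 such promoters, with a median of 3 matches, so its presence does not set these genes apart. That background, also used for the words below, took 1 promoter per gene and left out 1 chromosome. The longer forms CAGGAA or CCGGAA, which contain the core and were searched on both strands, occur in 34.9% of promoters. They were matched 1 time in Kdr, 2 in Emcn, 0 in Flt4, and 0 and 1 in starts 1 and 3 of Erg. In promoters not shown, Tek had 2 matches and starts 1 to 3 of Egfl7 had 2, 1 and 0. Flt1 and start 2 of Erg had 0. The GATA-type words AGATAA or TGATAA occur in 17% of promoters, and among the sequences shown had 1 match, in start 3 of Erg. Among those not shown they had 1 match, in start 2 of Egfl7. These are matches of letters, not binding sites.

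By GENCODE M21 (GRCm38), the genes lie apart except for a few shared chromosomes. Kdr spans chr5:75932827-75978458 and Flt1 chr5:147561604-147726011, both on the minus strand. Pecam1 spans chr11:106654217-106750628 (minus) and Flt4 chr11:49609263-49652739 (plus). Erg lies at chr16:95359169-95586593 (minus), Cdh5 at chr8:104101625-104144511, Tek at chr4:94739289-94874976, Emcn at chr3:137341067-137432185, Egfl7 at chr2:26580014-26593120 and Esam at chr9:37528078-37538319, all on the plus strand. Exons of Egfl7 share 64 bases with Agpat2 and 58 with Mir126b on the opposite strand, and 264 with Gm20532 and 73 with Mir126a on its own strand. Whether reads were counted by strand is not stated, so the Egfl7 values are uncertain to that extent.

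Among the receptors, Flt4 was highest in double-floxed organoids. At day 14 its normalized counts were 27.9 and 21.3 in Trps1+/+ libraries, 37.3 and 48.2 in Cdh1+/F libraries and 117 and 111 in double-floxed libraries. At day 28 they were 16.9 and 28.2, 46.6 and 25.8, and 152 and 130. Both double-floxed libraries stood above all others at each day, and the other genotypes overlapped with each other at day 28. Flt4 rose in double-floxed against Trps1+/+ organoids by 2.17 on the log2 scale at day 14 (SE 0.32, limma adjusted p = 0.000207) and by 2.63 at day 28 (adjusted p = 2.91e-05). Against Cdh1+/F organoids it rose by 1.40 (adjusted p = 0.00343) and 1.99 (adjusted p = 0.00015), also by limma. Its differences of 0.77 and 0.64 between Cdh1+/F and Trps1+/+ organoids were not called (limma adjusted p = 0.0777 and 0.108).

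Kdr went the other way and had few reads at day 28. Its normalized counts at day 14 were 42.8 and 39.1 in Trps1+/+ libraries, 47.7 and 56.6 in Cdh1+/F libraries, and 10.3 and 13.6 in double-floxed libraries. At day 28 they were 5.41 and 4.4, 27 and 11.6, and 4.13 and 3.78, from 3 to 18 reads a library. The double-floxed libraries were lowest at both days, narrowly so at day 28. Kdr fell in double-floxed organoids by 1.71 against Trps1+/+ at day 14 (SE 0.399, limma adjusted p = 0.00542), a call that ended without the first double-floxed library (adjusted p = 0.0523), and its difference of -0.25 at day 28 was not called (adjusted p = 0.649). Against Cdh1+/F organoids it fell by 2.04 at day 14 and fell by 1.92 at day 28 (limma adjusted p = 0.00116 and 0.00113). In Cdh1+/F organoids it rose by 1.67 against Trps1+/+ at day 28 (limma adjusted p = 0.00339), and without the first Cdh1+/F library the adjusted p was 0.0502 at a difference of 1.10.

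Tek separated the genotypes differently at the 2 days. Its normalized counts at day 14 were 56.8 and 49.8 in Trps1+/+ libraries, 78.8 and 89.1 in Cdh1+/F libraries and 25.4 and 21.3 in double-floxed libraries, and at day 28 they were 16.2 and 15, 76.6 and 87.2, and 23.7 and 29. The Cdh1+/F libraries were highest at both days, and the lowest group changed from double-floxed to Trps1+/+. Tek fell in double-floxed against Trps1+/+ organoids by 1.16 at day 14 (SE 0.244, limma adjusted p = 0.00276) and rose by 0.72 at day 28 (adjusted p = 0.0308). The change of that difference between days was 1.88 (SE 0.345, limma adjusted p = 0.00405, where 17.9% of all genes were called, 8.22% higher and 9.72% lower). The call at day 28 was lost in 6 of 9 alternatives, among them leaving out either Trps1+/+ library or the second double-floxed library (adjusted p up to 0.151). Tek also fell against Cdh1+/F organoids, by 1.80 and 1.60 (limma adjusted p = 6.15e-05 and 9.29e-05), and in Cdh1+/F against Trps1+/+ organoids at day 28 it rose by 2.32 (adjusted p = 4.82e-06).

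Flt1, the most abundant of the 10 genes per kilobase in 4 of the 6 organoid groups, moved least among the receptors. Its log2 levels ran from 8.73 to 9.35 in Trps1+/+ and Cdh1+/F libraries at day 14 and from 9.39 to 9.93 in Cdh1+/F and double-floxed libraries at day 28. In Trps1+/+ libraries they were 8.85 and 9.35 at day 14 and 9.29 and 8.96 at day 28, and in double-floxed libraries at day 14 both were 9.62. Flt1 rose by 0.54 in double-floxed against Trps1+/+ organoids at day 28 (SE 0.195, limma adjusted p = 0.0404), and that call was lost in 5 of 9 alternatives, among them without the second Trps1+/+ or the first double-floxed library (adjusted p up to 0.318). It rose by 0.66 in Cdh1+/F against Trps1+/+ organoids at day 28 (limma adjusted p = 0.0122), lost without the second library of either group (adjusted p up to 0.0927), and by 0.69 in double-floxed against Cdh1+/F organoids at day 14 (adjusted p = 0.0126), lost without the first Cdh1+/F or either double-floxed library (adjusted p up to 0.125).

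Among the adhesion genes, Cdh5 spanned the widest range. Its normalized counts at day 14 were 151 and 157 in Trps1+/+ libraries, 209 and 285 in Cdh1+/F libraries, and 80.9 and 121 in double-floxed libraries, and at day 28 they were 15.5 and 27.3, 49.6 and 38.3, and 3.1 and 6.31. The 6 groups did not overlap with their neighbours in that order, which ran at each day from Cdh1+/F down through Trps1+/+ to double-floxed. The day 28 values of the double-floxed libraries rest on 3 and 5 reads. Cdh5 was lower in double-floxed than in Trps1+/+ organoids by 0.64 at day 14, which was not called (limma adjusted p = 0.183, though the fit on recovered reads with voom called it), and fell by 1.98 at day 28 (SE 0.345, adjusted p = 0.000512). Against Cdh1+/F organoids it fell by 1.29 at day 14 (limma adjusted p = 0.00892, up to 0.0992 without the second Cdh1+/F or the first double-floxed library) and fell by 3.03 at day 28 (adjusted p = 6.75e-06). Its rise of 1.04 in Cdh1+/F against Trps1+/+ organoids at day 28 (limma adjusted p = 0.0219) was lost without the first library of either group (adjusted p up to 0.183).

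Pecam1 changed less. Its log2 levels were 6.58 and 6.67 in Trps1+/+, 7.12 and 7.43 in Cdh1+/F and 6.08 and 6.22 in double-floxed libraries at day 14, and 6.63 and 6.55, 5.82 and 5.96, and 6.15 and 5.94 at day 28. The Cdh1+/F libraries moved from the highest group to the lowest, overlapping with the double-floxed libraries at day 28. Pecam1 rose in Cdh1+/F against Trps1+/+ organoids by 0.65 at day 14 (SE 0.19, limma adjusted p = 0.0174, up to 0.148 without the first Trps1+/+ or the second Cdh1+/F library) and fell by 0.69 at day 28 (adjusted p = 0.00788). In double-floxed organoids it fell by 1.12 against Cdh1+/F at day 14 (limma adjusted p = 0.000393), and its fall of 0.54 against Trps1+/+ at day 28 (adjusted p = 0.0361) was lost in 5 of 9 alternatives, among them without either Trps1+/+ or the second double-floxed library (adjusted p up to 0.167).

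Esam and Emcn had the fewest reads of the surface genes. The normalized counts of Esam were 19.9 and 20.5 in Trps1+/+, 30.1 and 42.1 in Cdh1+/F and 7.52 and 12.6 in double-floxed libraries at day 14, and 8.83 to 17.6 over all 6 libraries at day 28, where the genotypes overlapped. Of its 6 genotype comparisons 1 was called: Esam fell by 1.76 in double-floxed against Cdh1+/F organoids at day 14 (SE 0.393, limma adjusted p = 0.0029). Emcn counts were 16.9 and 14.2, 25.9 and 54.2, and 5.64 and 10.7 at day 14, and 3.38 and 2.64, 13.5 and 21.4, and 2.06 and 0 at day 28. The Cdh1+/F libraries were highest and the double-floxed lowest at each day, with 2 reads in all left in the latter at day 28.

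Emcn fell in double-floxed against Cdh1+/F organoids by 2.13 at day 14 (SE 0.573, limma adjusted p = 0.00939, up to 0.105 without the second Cdh1+/F or the first double-floxed library) and by 3.36 at day 28 (adjusted p = 0.000237). At day 28 the ratio of Emcn reads, Cdh1+/F over double-floxed, was 16.2 (95% counting interval 4.15 to 140, from 33 and 2 reads). Emcn rose by 2.17 in Cdh1+/F against Trps1+/+ organoids at day 28 (limma adjusted p = 0.00626), a call that ended without the second Cdh1+/F library (adjusted p = 0.0539). Its differences between double-floxed and Trps1+/+ organoids, -0.91 and -1.19, were not called (limma adjusted p = 0.252 and 0.112).

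The secreted gene Egfl7 was higher in both Trps1F/F genotypes than in Trps1+/+ organoids. Its normalized counts at day 14 were 44.8 and 36.5 in Trps1+/+, 131 and 104 in Cdh1+/F and 91.2 and 94.1 in double-floxed libraries, and at day 28 they were 31.1 and 46.6, 105 and 77.4, and 67.1 and 56.8. No Trps1+/+ library reached the lowest library of the other genotypes at the same day. Egfl7 rose by 1.50 at day 14 and by 1.22 at day 28 in Cdh1+/F organoids (SE 0.254, limma adjusted p = 0.000498 and 0.00131), and by 1.18 at day 14 and 0.68 at day 28 in double-floxed organoids (adjusted p = 0.00319 and 0.0451). The last of these calls was lost in 6 of 9 alternatives, among them without the first Trps1+/+ or either double-floxed library (adjusted p up to 0.296). Double-floxed and Cdh1+/F organoids differed by -0.32 and -0.54, not called (limma adjusted p = 0.334 and 0.0864).

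Erg, the transcription factor, had the largest difference of the 10 genes between double-floxed and Trps1+/+ organoids at both days. Its log2 levels at day 14 were 7.04 and 7.01 in Trps1+/+, 6.56 and 6.31 in Cdh1+/F and 3.50 and 2.29 in double-floxed libraries, and at day 28 they were 8.74 and 8.77, 6.31 and 6.64, and 3.74 and 4.78. The day 28 values of Trps1+/+ libraries correspond to 425 and 437 normalized counts, and the day 14 values of double-floxed libraries to 10.3 and 3.88. The order Trps1+/+, Cdh1+/F, double-floxed held at both days without overlap. Erg fell in double-floxed against Trps1+/+ organoids by 4.13 at day 14 and fell by 4.49 at day 28 (SE 0.38, limma adjusted p = 4.98e-06 and 1.56e-06). Against Cdh1+/F organoids it fell by 3.54 and 2.21 (limma adjusted p = 8.02e-06 and 0.000256). In Cdh1+/F against Trps1+/+ organoids it fell by 2.28 at day 28 (limma adjusted p = 0.00025), while the difference of -0.59 at day 14 was not called (adjusted p = 0.25). These 5 calls kept their direction and side of the threshold in every alternative run for them.

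The authors' deposited tables cover the comparison of double-floxed with Trps1+/+ organoids. In the authors' deposited table of day 14, Erg was at -3.46 with an adjusted p of 1.8e-19, and Flt4 at 1.98 with an adjusted p of 4.99e-08. At day 28 the authors' deposited table gave -4.28 for Erg and 2.44 for Flt4. Of the 10 genes, the authors' deposited tables called 3 higher and 3 lower at day 14 (29.4% of all genes called) and 2 higher and 2 lower at day 28 (31.7% called).

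Time in matrigel was followed within each genotype. Cdh5, the endothelial cadherin, and Kdr, the main VEGF receptor, fell from day 14 to day 28 in all 3 genotypes, and Emcn fell in Trps1+/+ and double-floxed organoids. Erg rose in those same 2 genotypes. In Trps1+/+ organoids 1 of the 10 genes rose and 4 fell, with 25.9% of all genes called (11.1% higher, 14.7% lower). In double-floxed organoids 1 rose and 3 fell, with 35.4% called (14.8% higher, 20.6% lower), and in Cdh1+/F organoids 1 rose and 4 fell, with 40.8% called (20.5% higher, 20.3% lower). The median differences were -0.36, -0.03 and -0.73, against 0.01, -0.03 and 0.04 over all genes.

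**Figure D3:**
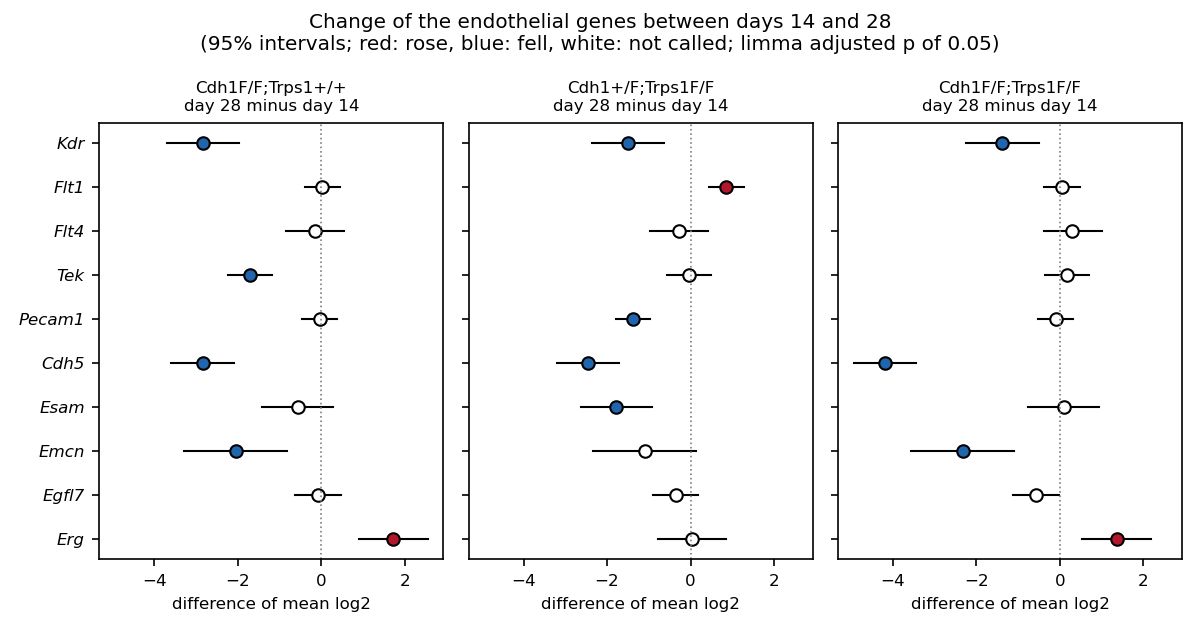
Points are the day 28 minus day 14 differences of mean log2(normalized count + 1) of the 10 genes in 3 organoid genotypes, with 95% intervals, coloured where limma's adjusted p was under 0.05. Cdh5 lies at -2.84, -2.46 and -4.19 and Kdr at -2.83, -1.50 and -1.38, while Erg lies at 1.73, 0.04 and 1.37.

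Cdh5 fell by 2.84 in Trps1+/+ (limma adjusted p = 7.52e-05), by 2.46 in Cdh1+/F (adjusted p = 0.000207) and fell by 4.19 in double-floxed organoids (adjusted p = 5.66e-06), and all 3 calls held in every alternative run. Kdr fell by 2.83 in Trps1+/+ (limma adjusted p = 0.00025), by 1.50 in Cdh1+/F (adjusted p = 0.0103) and by 1.38 in double-floxed organoids (adjusted p = 0.0182). The Cdh1+/F call for Kdr was lost without the second library of either day (adjusted p up to 0.113), and the double-floxed call was lost in 5 of 10 alternatives, among them without either day 14 library or the second day 28 library (adjusted p up to 0.112). Tek fell by 1.71 in Trps1+/+ organoids (limma adjusted p = 0.000276) and differed by -0.04 in Cdh1+/F organoids, where it was not called.

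Emcn fell by 2.05 in Trps1+/+ (limma adjusted p = 0.0192, up to 0.105 when any 1 of the 4 libraries was left out) and fell by 2.33 in double-floxed organoids (adjusted p = 0.00796). In the latter the ratio of Emcn reads, day 14 over day 28, was 7.15 (95% counting interval 1.7 to 63.8), and the call was lost in 4 of 10 alternatives, among them without the second library of either day (adjusted p up to 0.0804). Erg rose by 1.73 in Trps1+/+ organoids (limma adjusted p = 0.00528), which held in every alternative, and by 1.37 in double-floxed organoids (adjusted p = 0.0148), which was lost in 5 of 10, among them without the second library of either day (adjusted p up to 0.161). Its difference was 0.04 in Cdh1+/F organoids.

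In Cdh1+/F organoids Pecam1 also fell by 1.38 (limma adjusted p = 0.00019), Esam fell by 1.78 (adjusted p = 0.00366) and Flt1 rose by 0.86 (adjusted p = 0.00436, 0.0579 without the first day 14 library). Whether the change with time differed between double-floxed and Cdh1+/F organoids was tested, with 19.2% of all genes called (7.43% higher, 11.7% lower), and 3 of the 10 genes were called. The double-floxed change minus that of Cdh1+/F organoids was 1.27 for Pecam1 (SE 0.269, limma adjusted p = 0.0052), 1.87 for Esam (SE 0.556, adjusted p = 0.0332) and -1.73 for Cdh5 (SE 0.488, adjusted p = 0.0258). Mean log2 levels of Pecam1 went from 6.15 to 6.05 in double-floxed and from 7.27 to 5.89 in Cdh1+/F organoids. Those of Esam went from 3.43 to 3.52 and from 5.19 to 3.42, so for both genes most of the change lay in Cdh1+/F organoids. The Pecam1 difference held in 13 of 13 alternatives. The Cdh5 and Esam differences were each lost in 7 of 13, among them without the second double-floxed library at day 14 or the first Cdh1+/F library at day 14 for Cdh5, without the first double-floxed library at day 14 or the second Cdh1+/F library at either day for Esam, and without the first library of either genotype at day 28 for both (adjusted p up to 0.12 and 0.129). For Flt1 the difference was -0.81 (limma adjusted p = 0.0583).

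Of 23 kept genes on a list of 30 further endothelial genes, 2 rose and 7 fell in double-floxed against Trps1+/+ organoids at each day, with medians of -1.06 and -0.50. That share of calls is near the 32.4% and 43.2% of all genes given above. The summed normalized counts of the list went the other way, from 6221 to 6360 in double-floxed against 3727 to 3987 in Trps1+/+ libraries at day 14, and from 7113 to 7734 against 4820 to 4860 at day 28. Palmd, the list's gene with the most reads in double-floxed organoids, rose by 1.31 and 0.83 (limma adjusted p = 2.51e-05 and 0.000599). In the comparison with Cdh1+/F organoids 3 rose and 16 fell at day 14 and 3 rose and 14 fell at day 28, with medians of -2.11 and -1.74. Of all genes, 19% were called higher and 21.6% lower there at day 14, and 27.7% and 29% at day 28. At day 28 against Cdh1+/F, Cd34, a surface sialomucin also found on fibroblasts, fell by 6.18, Clec14a fell by 4.83, Plvap, which encodes a protein of endothelial fenestrae, fell by 4.28 and the sphingosine phosphate receptor gene S1pr1 fell by 3.12 (limma adjusted p = 1.76e-09, 2.95e-07, 1.64e-08 and 3.75e-09). The ETS factor gene Fli1, a relative of Erg, rose in double-floxed against Trps1+/+ organoids by 1.24 at day 14 and 2.53 at day 28 (limma adjusted p = 0.000719 and 1.71e-06). In double-floxed organoids at day 28, 8 of the list's genes were at 0 in both libraries (Tie1, Sox17, Sox18, Cldn5, Robo4, Gpihbp1, Icam2 and Cyyr1). Between days the list had 1 rise and 8 falls in Trps1+/+, 1 and 7 in double-floxed and 2 and 10 in Cdh1+/F organoids. Of all genes, 25.9%, 35.4% and 40.8% were called in these 3 genotypes, in that order. The double-floxed count of the list is near that share.

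Some genes of ligands and coreceptors of these receptors also differed between genotypes. Of 12 kept VEGF, angiopoietin and coreceptor genes, 2 rose and 4 fell in double-floxed against Trps1+/+ organoids at day 14, and 2 rose and 6 fell at day 28. Of all genes, 14.5% were called higher and 17.9% lower at day 14, and 19.9% and 23.4% at day 28. Angpt1, the activating ligand of TEK, fell by 2.06 and 2.52 at the 2 days, Apln, which encodes the vascular peptide apelin, fell by 1.50 and 1.77, and Nrp1, a VEGF coreceptor gene, fell by 1.40 and 1.38 (limma adjusted p at most 3.98e-05). Against Cdh1+/F organoids at day 28, Angpt2, the context-dependent antagonist of TEK, fell by 6.64 and Figf, which encodes VEGF-D, a ligand of FLT4, fell by 4.76 (limma adjusted p = 1.89e-10 and 8.06e-10). Flt4 itself rose in that comparison, as given above. Of 4 kept lymphatic genes, 4 fell there, where 29% of all genes were called lower. They were the secreted glycoprotein gene Reln at -5.87, and Nr2f2, Pdpn and Prox1, the lymphatic master regulator, at -1.57, -1.51 and -1.19 (limma adjusted p = 1.14e-09, 5.85e-06, 2.46e-06 and 0.00875). Against Trps1+/+ organoids 2 of the 4 fell at day 14, Reln at -1.44 and Pdpn at -1.01, and 1 at day 28, Reln at -0.98, while Prox1 was at -0.72 and -0.57 and was not called (limma adjusted p = 0.124 and 0.189).

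Markers of other cell types also differed between the genotypes. The shares of all genes called in each of these comparisons are given above. Of 14 macrophage genes, 11 fell and none rose in double-floxed against Trps1+/+ organoids at each day, and 14 and 10 fell against Cdh1+/F organoids. Their summed normalized counts ran from 23297 to 23989 in Cdh1+/F, 9192 to 9438 in Trps1+/+ and 2801 to 3425 in double-floxed libraries at day 14, and from 5772 to 6896, 3489 to 3980, and 974 to 1554 at day 28. The means of Cdh5, Kdr and Emcn had the same order of groups at each day. So did the sums of the fibroblast, skeletal muscle and pericyte lists, without overlap, so that order was not particular to macrophage genes. In Trps1+/+ libraries the fibroblast sums were 194041 to 202574 at day 14 and the pericyte sums were 6265 to 8264 at day 28. Erg was highest in Trps1+/+ and Flt4 in double-floxed organoids at each day. Tek, Pecam1, Esam, Flt1 and Egfl7 had another order at day 28. Of 15 fibroblast genes, 14 fell in double-floxed against Trps1+/+ organoids at each day and 15 against Cdh1+/F organoids, with sums of 840073 to 909651 in Cdh1+/F and 80981 to 81716 in double-floxed libraries at day 14. Of 18 epithelial genes, 12 rose and 2 fell at day 14 and 10 rose and 1 fell at day 28 in double-floxed against Trps1+/+ organoids. Of 11 skeletal muscle genes, 10 fell at day 14 and 11 at day 28 in double-floxed against Trps1+/+ organoids, and 11 at each day against Cdh1+/F organoids. Their sums at day 28 were 869 to 1436 in double-floxed, 6111 to 9089 in Trps1+/+ and 51127 to 65797 in Cdh1+/F libraries. Of 12 kept pericyte and vascular smooth muscle genes, 2 rose and 7 fell at day 14 and 4 rose and 8 fell at day 28 against Cdh1+/F organoids, with sums at day 28 of 4484 to 4837 in double-floxed and 17450 to 22038 in Cdh1+/F libraries. Against Trps1+/+ organoids 2 rose and 6 fell at day 14, and 6 fell at day 28. Des is on both this list and the skeletal muscle list, so their counts and sums are not separate. No macrophage, fibroblast, skeletal muscle or epithelial gene on these lists was at 0 in every library of a group. Their part in the endothelial results was not tested.

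The platelet and megakaryocyte list was highest in Trps1+/+ organoids, as Erg was, only by its sum. The list's summed normalized counts were 3605 to 4404 in Trps1+/+ libraries at day 28, 2054 to 2456 at day 14, and 771 to 1268 in the other groups, led by Itgb3, the integrin beta 3 gene, which is also expressed outside platelets. Cdh1+/F and double-floxed libraries, which were apart for Erg, overlapped in that sum. At day 14 it was 1191 to 1268 in Cdh1+/F and 1193 to 1264 in double-floxed libraries. At day 28 it was 970 to 979 and 771 to 1030. Of the list's 6 kept genes, 3 rose and 1 fell in Cdh1+/F against Trps1+/+ organoids at day 28 (median 0.87), where Erg fell. With time in Trps1+/+ organoids, where Erg rose, 1 rose and 1 fell (median -0.20). In double-floxed against Trps1+/+ organoids 5 fell at day 14 and 4 at day 28, and none rose (medians -1.11 and -1.23). Itgb3 fell by 2.21 in double-floxed and by 2.49 in Cdh1+/F against Trps1+/+ organoids at day 28 and rose by 0.89 with time in Trps1+/+ organoids (limma adjusted p = 2.05e-07, 2.19e-08 and 0.000635). Pf4, a platelet chemokine gene, fell by 3.15 with time in the same organoids. In Trps1+/+ libraries the defining platelet genes Gp9 and Treml1 were at 0 at day 14 and at 0 to 1 reads at day 28, where no gene of the list was at 0 in both libraries and where Erg was highest. The part of these cells in the Erg result was not tested.

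Across the 12 organoid libraries, Cdh5, Kdr and Emcn followed one another (Pearson r of 0.89 for Cdh5 and Kdr, 0.88 for Kdr and Emcn, 0.85 for Cdh5 and Emcn), Pecam1 followed Esam (0.91), and Flt4 ran against Erg (-0.90). These values describe 12 libraries that share 6 groups and are not tests. The genes most like Cdh5 over the 12 libraries were Gm20400 (0.971), Ramp3 (0.967) and Pf4 (0.964), and those most like Emcn were Fcgr2b (0.967), Nov (0.966) and Ms4a7 (0.963). Kdr was most like H2-M3 (0.972), Mesdc2 (0.970) and Cd53 (0.962), where Cd53, Fcgr2b and Ms4a7 are leukocyte genes. Erg was most like Grk5 (0.970), Cacng4 (0.964) and Plce1 (0.948), and Flt4 most like Gpr128 (0.970), Qsox2 (0.969) and Slc16a13 (0.966). Tek was most like Gabra3 and Calu (0.974 each), Egfl7 like Amigo1 (0.964), Pecam1 like Tbxas1 (0.950) and Flt1 like Plag1 (0.929).

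In the tumors, the means of 9 of the 10 genes were lower in Trps1F/F than in Trps1+/+ mice, with log2 differences from -0.34 to -1.36, but none passed the test, and the Trps1F/F tumors were widely spread. By limma over 9 mice, 0 of the 10 genes and 0 of 15173 tested genes (0%) were called, 4 of the 10 and 792 of all genes had an unadjusted p under 0.05, and voom also called 0 of the 10. The median difference of the 10 genes was -1.26, against 0.00 over all genes. The groups of mice did not overlap for 2 of the 10 genes, Pecam1 and Esam, at a background of 3.28% of all genes. Tumors labelled as tumor cells held vessel, macrophage and fibroblast genes, none of which was at 0 in all tumors of a genotype.

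**Figure D4:**
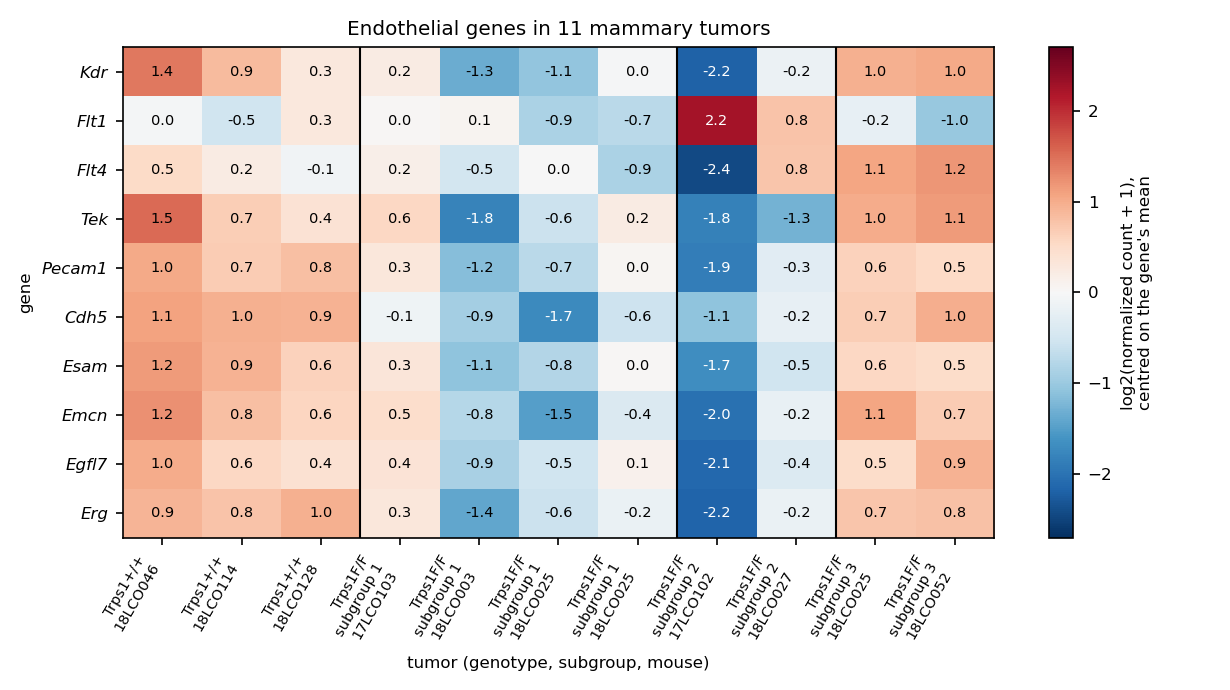
Cells give log2(normalized count + 1) minus the gene's mean over 11 tumors for the 10 genes (rows) in each tumor (columns, by genotype, subgroup and mouse), red above and blue below the mean. Tumor 17LCO102 is lowest for 8 genes and highest for Flt1, and the Trps1+/+ tumors are above the mean for Pecam1, Cdh5, Esam, Emcn, Egfl7, Erg, Kdr and Tek.

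Of the adhesion genes, Cdh5 had normalized counts of 4617, 4233 and 4157 in the Trps1+/+ tumors and of 661 to 4292 in the 8 Trps1F/F tumors. By mouse, its log2 levels had a lowest value of 9.99, a median of 10.71 and a highest value of 12.07 in Trps1F/F mice, and were 12.17, 12.05 and 12.02 in Trps1+/+ mice. The highest Trps1F/F mouse, 18LCO052, lay within the Trps1+/+ range and the other 5 lay below it. The difference was -1.31 (SE 0.399, limma adjusted p = 0.803). Pecam1 differed by -1.25 (SE 0.491) between a median of 10.94 over mice (9.24 to 11.63) and Trps1+/+ values of 12.12, 11.78 and 11.90, and Esam by -1.33 (SE 0.462) between a median of 8.96 (7.61 to 9.77) and values of 10.43, 10.21 and 9.89 (both at a limma adjusted p of 0.803). For both genes every Trps1F/F mouse lay below every Trps1+/+ mouse.

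The receptors overlapped between the genotypes. Over Trps1F/F mice Kdr ran from 7.67 to 10.87 with a median of 9.74, and was 11.28, 10.70 and 10.14 in Trps1+/+ mice. Tek ran from 6.38 to 9.35 with a median of 7.68, against 9.74, 8.88 and 8.59. Flt4 ran from 6.23 to 9.84 with a median of 8.77, against 9.17, 8.88 and 8.57. The highest Trps1F/F mouse was above at least 1 Trps1+/+ mouse in each case. The differences were -1.28 for Kdr, -1.36 for Tek and -0.34 for Flt4 (limma adjusted p = 0.803, 0.803 and 0.906). Flt1 ran from 9.98 to 13.25 with a median of 11.06, against 10.96, 10.47 and 11.29, with a difference of 0.35 (limma adjusted p = 0.896).

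Emcn, Egfl7 and Erg had medians of 8.73 (6.96 to 9.65), 8.73 (6.78 to 9.84) and 7.86 (5.78 to 8.74) over Trps1F/F mice. In Trps1+/+ mice Emcn was 10.19, 9.77 and 9.55, Egfl7 9.89, 9.46 and 9.32, and Erg 8.87, 8.72 and 8.92. Each of the 3 genes overlapped only at the top of the Trps1F/F range. The differences were -1.22 for Emcn and -1.33 for Erg, and the means of Egfl7 were 8.56 ± 1.07 (SD, n = 6) and 9.56 ± 0.297 (SD, n = 3) (limma adjusted p = 0.803 for each gene).

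Tumor 17LCO102, of subgroup 2, was the lowest of the 11 for 8 genes (Pecam1, Kdr, Flt4, Tek, Erg, Emcn, Egfl7 and Esam) and the highest for Flt1, with 9770 normalized counts against 1008 to 3523 in the other 10 tumors. Its summed macrophage genes were 236809 normalized counts, against 34247 to 102005 in the other Trps1F/F tumors and 110680 to 151701 in Trps1+/+ tumors. The tumor with the next highest Flt1, 18LCO027 of subgroup 2, had a macrophage sum of 63651, below every Trps1+/+ tumor. Summed platelet and megakaryocyte genes were highest in 17LCO102 and 18LCO027, at 5429 and 4018, and were 1578 to 2807 in Trps1+/+ tumors. Without mouse 17LCO102 the median difference of the 10 genes was -0.94 and that of Flt1 was -0.05. The part of macrophages or platelets in the Flt1 level was not tested.

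Mouse 18LCO025 gave 3 tumors. The tumor in subgroup 3 was the highest of the 3 for 10 of the 10 genes, and of its tumors in subgroup 1, the first was the lowest for 9 genes and the second for Flt4. Its Cdh5 log2 levels were 9.37, 10.53 and 11.75 in tumors 1 to 3, with summed epithelial genes of 177787, 94237 and 24355 normalized counts. Tumors of 1 mouse thus differed for Cdh5 by more than the genotype means did.

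The labels place the Trps1F/F tumors in 3 subgroups, and do not say how these were defined, so a subgroup drawn from expression would not be independent of these genes. In subgroup 1 (4 tumors of 3 mice) against Trps1+/+, Cdh5 fell by 1.72 (SE 0.3, limma adjusted p = 0.00829) and the other 9 genes were not called, where 15.6% of all 15748 genes were called, 8.91% higher and 6.68% lower. Cdh5 was 9.95, 10.16 and 10.97 by mouse there, below every Trps1+/+ mouse, and its call held in every alternative run, with an adjusted p up to 0.0406. Esam was at -1.28 (limma adjusted p = 0.0597). In the same comparison 8 of 18 epithelial genes rose (median 6.03), 6 of 15 macrophage genes fell (median -1.19) and 2 of 15 fibroblast genes fell (median -1.17). Summed epithelial genes were 94237 to 177787 normalized counts in the tumors of subgroup 1 and 10300 to 40495 in Trps1+/+ tumors, and macrophage sums were 34247 to 51936 against 110680 to 151701. The part of these cells in the Cdh5 result was not tested. Without mouse 17LCO103, with voom, or with each tumor as a sample, 2 genes were called in place of 1.

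In subgroup 2 (2 mice) the 10 genes were lower against Trps1+/+ tumors by their median than in subgroup 3 (2 mice). In subgroup 2 none of the 10 and 0 of all genes were called by limma, voom called 0 of the 10, and 9 of the 10 and 2096 of all genes had an unadjusted p under 0.05. The differences were -2.41 for Tek, -2.01 for Esam, -1.65 for Cdh5 and 1.61 for Flt1 (limma adjusted p = 0.21, 0.182, 0.162 and 0.237). The median of the 10 genes was -1.94, and -1.07 without mouse 17LCO102. In subgroup 3 the differences ran from -0.52 to 0.91 with a median of -0.06. There limma called 0 of the 10 and 0.00635% of all genes, voom called 0 of the 10, and 0 of the 10 and 952 of all genes had an unadjusted p under 0.05. These comparisons share the 3 Trps1+/+ tumors, and the subgroups were not tested against each other.

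The authors' deposited tables gave more calls, and do not say how tumors of 1 mouse were treated. The authors' deposited table of subgroup 1 called 4 of the 10 genes lower, Cdh5 at -1.72, Kdr at -1.34, Esam at -1.19 and Pecam1 at -1.11, with 25.4% of all genes called. The authors' deposited table of subgroup 2 called 5 lower, among them Tek at -2.48, and Flt1 higher at 1.76, with 4.79% called. In the authors' deposited table of subgroup 3 none of the 10 was called.

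All but Flt1 of the 10 genes varied together across the 11 tumors, with a median Pearson r to the other genes from 0.73 for Flt4 to 0.96 for Kdr, and Flt1 ran against them with a median of -0.57. This describes 11 tumors of 9 mice, 3 from 1 mouse. The 10 genes closest to the mean of the 10 over the tumors were Ppp1r16b (r = 0.990), Myct1 (0.987), Nova2 (0.985), Gimap4 (0.984), Tie1 (0.981), Adgrl4 (0.977), Robo4 (0.975), Mmrn2 (0.968), Icam2 (0.967) and Arhgef15 (0.964). Of these, Tie1, Adgrl4, Robo4, Mmrn2 and Icam2 were on the list of further endothelial genes. That list had 30 kept genes and a median of -1.16 in Trps1F/F against Trps1+/+ mice, with none called, and in subgroup 1, 1 rose and 5 fell. In subgroup 1, 8.91% of all genes were called higher and 6.68% lower. Summed fibroblast genes were 161941 to 900011 normalized counts in Trps1F/F and 1050052 to 1784217 in Trps1+/+ tumors, without overlap, and their part was not tested.

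HC11 cells held enough reads of 4 genes to be tested in each table. With TSA, Pecam1 and Flt1 fell, where 85.2% of all 13035 genes were called (43.6% higher, 41.6% lower), so calls there are common. With sgTrps1, Flt1 rose and Pecam1 was not called, where 67% of 12552 genes were called (34.6% higher, 32.4% lower). Flt4 and Egfl7 in TSA cells and Egfl7 and Esam in sgTrps1 cells passed the filter on low values only through the group in which they were higher, so they had to differ, and their values are given without a test. Cdh5, Kdr, Tek, Erg and Emcn stayed at 7 reads or fewer in every HC11 library and were not tested, nor were Esam in the TSA table and Flt4 in the guide RNA table.

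**Figure D5:**
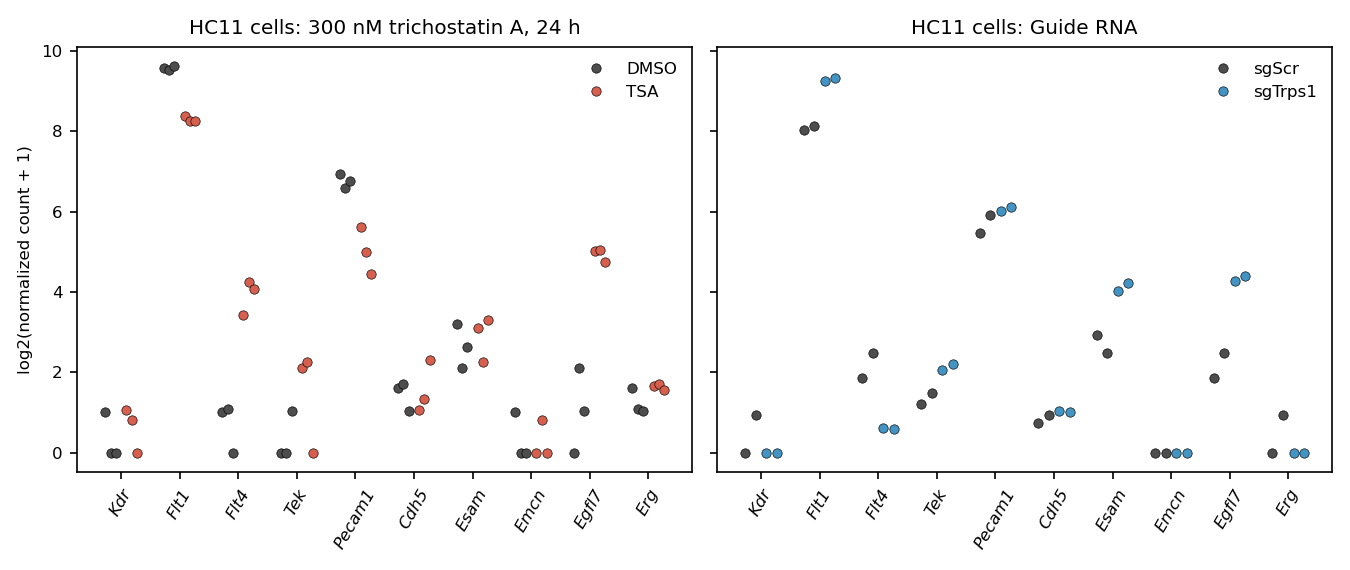
Points are log2(normalized count + 1) of the 10 genes in HC11 libraries, 3 with DMSO and 3 with TSA on the left and 2 with sgScr and 2 with sgTrps1 on the right. Flt1 is highest in both panels, falling with TSA from between 9.54 and 9.62 to between 8.27 and 8.39 and rising with sgTrps1 from 8.03 and 8.14 to 9.25 and 9.34.

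Flt1 had normalized counts of 771, 745 and 788 with DMSO and 335, 307 and 308 with TSA, and Pecam1 had 121, 96.2 and 107 against 48, 30.9 and 20.8. In both genes every TSA library was below every DMSO library. Flt1 fell by 1.28 (SE 0.0626, limma adjusted p = 1.99e-09) and Pecam1 fell by 1.75 (SE 0.253, adjusted p = 4.15e-05). Egfl7 had 0, 3.36 and 1.04 normalized counts with DMSO and 31.6, 32.4 and 25.7 with TSA. Flt4 had 1.02, 1.12 and 0 against 9.82, 18.1 and 15.8, from 2 reads in all with DMSO and 49 with TSA.

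With the guides, Flt1 had normalized counts of 261 and 282 with sgScr and 608 and 645 with sgTrps1, and rose by 1.20 (SE 0.0808, limma adjusted p = 2.06e-08). Egfl7 had 2.62 and 4.59 against 18.5 and 20.2, from 4 and 5 against 35 and 39 reads, and Esam had 6.55 and 4.59 against 15.3 and 17.6. The authors' deposited table gave Esam an adjusted p of 0.0684. Pecam1 differed by 0.37 (limma adjusted p = 0.0864) and was called when the second sgScr library was left out. The TSA and guide RNA tables were normalized apart, and their differences were not tested against each other.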

How the data were processed

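RNA-seq of 33 libraries (organoids, tumors and HC11 cells) was analysed from 4 gene tables. Per the submitters' processing notes, TopHat, HTSeq and GRCm38 were used, with versions not given in the sources used here. Per the file headers, the authors deposited log2 values of normalized counts. All of these values were log2(whole reads times 1 factor per library + 1), to within 0.01 reads or a share of 1e-05, so the pseudocount is 1. The authors also deposited tables of log2 fold changes and adjusted p-values for 7 comparisons, in which the guide RNA column had the opposite sign and was turned here.

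Rows with no symbol (1 in the guide RNA and 1 in the organoid table, at most 1.31e-05% of a library) and 12 or 13 date-like symbols per table were left out. Genes were kept where normalized count + 1 reached 10 in as many libraries as the smallest group has. The test was limma (version 3.58.1, under R 4.3.3, with a variance trend, all organoid groups in 1 fit), with Benjamini-Hochberg adjustment over all kept genes and a threshold of 0.05. The code was tested on simulated data. Tumors were averaged by mouse, or by mouse and subgroup, and tables were tested separately. Organoid replicates that share a header are called first and second in column order. The main test did not pair libraries by replicate number. Correlations of same-numbered libraries were run for HC11 and double-floxed organoids only, and cannot decide whether libraries were paired.

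All 10 genes are named, with up to 4 genes of smallest p per marker list and the genes with the highest correlations. Members and lists were chosen with earlier results of these data known. Alternatives were no filter, a pseudocount of 5, equal total reads, voom on the recovered reads, a replicate block, fits of only the groups compared, each tumor as a sample, and leaving out each library or mouse. Counting intervals cover counting error only.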

Additional observations from a re-analysis of the deposited data

Results flagged for a closer look

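Differences between groups in how a gene changed were tested by interaction terms in organoids (limma with adjustment over all genes). For the Trps1 difference in Cdh1F/F organoids, 1 of the 10 genes passed, where 17.9% of all genes did. For the Cdh1 difference in Trps1F/F organoids, 3 of the 10 passed, where 19.2% of all genes did. For Tek, the difference between double-floxed (Cdh1F/F;Trps1F/F) and Trps1+/+ organoids was 1.88 higher on the log2 scale at day 28 than at day 14 (adjusted p = 0.00405). The difference between double-floxed and Cdh1+/F organoids shifted between the days by 1.27 for Pecam1 (adjusted p = 0.0052), by -1.73 for Cdh5 (adjusted p = 0.0258) and by 1.87 for Esam (adjusted p = 0.0332). The calls of Cdh5 and Esam were each lost in 7 of 13 alternatives. No sample stood far from the rest of its group in the 10 gene sets of 6 mice tested for it with Dixon's criterion.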

How the results depend on the processing

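Calls of the 10 genes were refitted 600 times under the alternatives: 526 kept their call, 74 lost it and 0 reversed. Leaving out 1 library or mouse kept 228 of 278 calls, no filter 57 of 63, voom 58 of 63, equal total reads 61 of 63, a pseudocount of 5 62 of 63 and fits of only the groups compared 48 of 55. All but the last of these tallies include Flt4 and Egfl7 with TSA (11 refits each) and Egfl7 and Esam with sgTrps1 (10 each). These passed the filter only through the higher group and kept their call in every refit, so they say nothing about stability. Double-floxed against Trps1+/+ organoids at day 28 had 7 genes called, 3 with no filter, 3 with only the groups compared, and 4 to 6 with 1 library left out. Cdh1+/F against Trps1+/+ at day 14 had 2 called, 4 with a pseudocount of 5, 5 with voom, 6 with only the groups compared, and 1 to 2 with 1 library left out. Double-floxed organoids between days had 4 called, 2 with voom, 2 with only the groups compared, 1 with a replicate block in that fit, and 1 to 4 with 1 library left out. The change between days of the Trps1 difference had 1 called, and 1 to 2 with 1 library left out. That of the Cdh1 difference had 3 called, 1 with no filter, 1 with voom, and 1 to 3 with 1 library left out. Tumor subgroup 1 had 1 called, 2 with voom, 2 with each tumor as a sample, and 1 to 2 with 1 mouse left out. The cause was not tested. Same-numbered libraries had deviations correlated at -0.0838, -0.00282 and -0.0632 in the TSA table, -0.193 with the guides and -0.0315 in double-floxed organoids. With the replicate block, 4 genes were called with TSA and 3 with sgTrps1, as without it, 2 in each case having passed the filter only through the higher group. A crossed pairing of the guide libraries, chosen after seeing the data, also called 3. Depth limits Kdr, Emcn and Cdh5 in day 28 organoids and most of the genes in HC11.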
